A study of Mus musculus with 8 samples.

Results

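The mitochondrial solute carriers of the SLC25 family were examined in the amygdala of male mice that drank plain water or water with 0.03% aspartame. Members were taken by name, as every gene whose symbol starts with Slc25a, whose values varied and whose mean over all 8 libraries was at least 3 on the deposited log2 scale, with both aspartate-glutamate carriers, *Slc25a12* and *Slc25a13*, included in any case. The table held 24982 genes, of which 47 carried such a symbol. 38 of them passed the minimum level and, with *Slc25a13* added by name, 39 genes were members. *Slc25a41* and *Slc25a54* were listed at 0 in every library, and 7 varying genes, *Slc25a13* among them, lay below the minimum. The member just inside it was *Slc25a45*, with a mean of 3.61, and the gene just outside it was *Slc25a13*, with a mean of 2.83. The minimum was applied to the mean of all libraries, without regard to group.

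SLC25 carriers are nuclear-encoded proteins, most of which sit in the inner mitochondrial membrane and exchange a metabolite of the matrix for one of the cytosol. They pass ADP and ATP, phosphate, amino acids, carboxylates, cofactors and metal ions across a membrane that is otherwise tight to them. In neurons the aspartate-glutamate carrier aralar (*Slc25a12*) and the oxoglutarate-malate carrier (*Slc25a11*) form, with cytosolic and mitochondrial aspartate aminotransferases and malate dehydrogenases, the malate-aspartate shuttle, which brings the reducing power of cytosolic NADH into mitochondria. Aspartame is a methyl ester of a dipeptide of aspartate and phenylalanine, and aspartate is a substrate of this shuttle. Whether aspartate from aspartame reached the shuttle in the amygdala was not measured.

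RNA from microdissected amygdala was sequenced with 1 library per animal, 4 from plain water and 4 from aspartame mice. All were C57BL/6 males, bought at 8 wk of age from Charles River and group-housed (in pairs by the methods), and were 187 to 189 d old. The exposure was 18 wk by the labels, and a shorter one is stated in the methods. The labels name no transgene and no difference between the groups other than the drinking water, and water 1 or aspartame 1 stands for the library of that group and replicate. The deposited values are regularized log2 (rlog) values, that is, log2 counts scaled for library size in which weakly counted genes are drawn toward their own mean. A difference below is the mean rlog of aspartame less that of plain water. The values are no longer counts, so the depth of each library is unknown.

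A single aspartame sample was left out of the original analysis on the basis of its principal components, without being named. Aspartame 2 stood farthest from the others on the first component of all genes tested, which held 55.8% of the variance (score of 27.6). The other libraries ran from -24.0 in aspartame 4 and -17.9 in aspartame 1 to 10.3 in water 3. Values are therefore given first for the 7 libraries without aspartame 2 and then for all 8. Markers of neurons, astrocytes, oligodendrocytes, microglia, endothelium and the amygdala were all above the minimum level. Among them the neuronal gene *Rbfox3* rose by 0.37 (adjusted p = 0.0370) and *Stmn2* fell by 0.26 (adjusted p = 0.0447), and the myelin gene *Mbp* rose by 0.62 (adjusted p = 0.0396; limma with Benjamini-Hochberg adjustment, 7 libraries). With all 8 libraries the differences of *Rbfox3*, *Stmn2* and *Mbp* were 0.24, -0.25 and 0.36 and none was called. None was called either with the 7 libraries after a trend with GC content and transcript length was removed within each library (0.12, -0.12 and 0.58). The summed level of the 6 oligodendrocyte markers was 12.51 to 12.90 on the log2 scale in the plain water libraries and 12.67 to 13.47 in aspartame 1, 3 and 4. The summed level of the 5 neuronal markers was 13.80 to 14.02 in plain water and 13.88 to 14.07 in these aspartame libraries. Among choroid plexus markers only *Ttr* passed the minimum level, and it was at 10.16 in water 1 and between 5.96 and 6.93 in the other libraries. The part of these shifts in the carriers' differences was not tested. In tissue RNA, fewer cells of a type cannot be told apart from less RNA per cell.

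The carriers covered a wide range of levels. Mean rlog of the 38 members that passed the minimum ran from 3.61 to 11.07, and the SD over the 4 plain water libraries from 0.0216 in *Slc25a23* to 0.198 in *Slc25a22*, with a median of 0.0900. To compare genes, mean plain water rlog was taken per kb of the longest protein-coding transcript (rlog minus log2 of length in kb). On that scale the highest members were the ADP/ATP carrier *Slc25a4* (ANT1) at 9.27, the calcium-regulated ATP-Mg/phosphate carrier *Slc25a23* at 9.26, the phosphate carrier *Slc25a3* at 8.39 and the ADP/ATP carrier *Slc25a5* (ANT2) at 7.96. The first pair in this order differed by less than the SD of either gene. The glutamate carrier *Slc25a22* followed at 7.02. *Slc25a12* stood at 5.83 per kb and *Slc25a13* at 1.14, the lowest of the members.

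**Figure D1:**
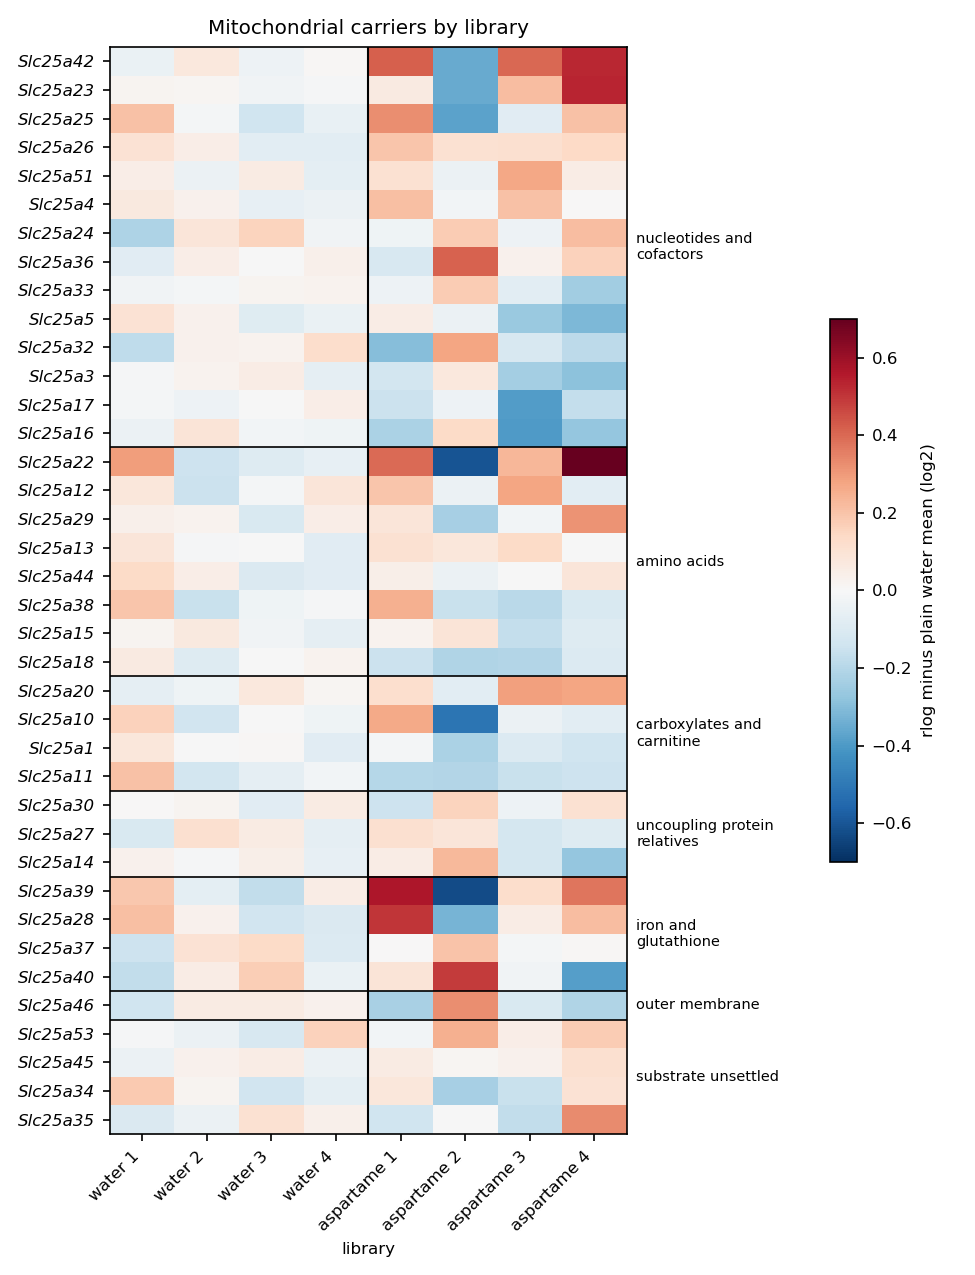
Deviation of each member from its plain water mean (rlog, log2 scale, color from -0.7 to 0.7) in each of the 8 libraries, with genes in rows (38 of the 39 members are drawn). The column of aspartame 2 holds the highest or lowest value of the 8 libraries for 26 of the 38 members tested. Over all genes tested, aspartame 2 did so for 56.3%.

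Neither aspartate-glutamate carrier passed the test. *Slc25a12* (ENSMUSG00000027010, GRCm38 chr2:71271063-71367749, minus strand) had rlog values of 8.58, 8.35, 8.48 and 8.58 in water 1 to 4 and of 8.69, 8.46, 8.77 and 8.42 in aspartame 1 to 4. Aspartame 1 and 3 lay above all plain water libraries, whereas aspartame 4 lay below all but water 2, and the groups overlapped. The difference was 0.13 with the 7 libraries (SE 0.0978, 95% interval -0.08 to 0.34, adjusted p = 0.417) and 0.09 with all 8 (SE 0.105, interval -0.14 to 0.32, adjusted p = 0.917).

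*Slc25a13*, or citrin, is the form of this carrier known from liver (GRCm38 chr6:6041218-6217173, minus strand). Its rlog values were 2.87, 2.78, 2.78 and 2.71 in water 1 to 4 and 2.89, 2.87, 2.92 and 2.78 in aspartame 1 to 4. The groups overlapped within a narrow range, and at this level rlog values are drawn together. It lay below the minimum and was therefore tested in a fit of all 18632 varying genes, where the difference was 0.08 (SE 0.0674, 95% interval -0.07 to 0.23, adjusted p = 0.511) and, with all 8 libraries, 0.08 (interval -0.05 to 0.21, adjusted p = 0.833). Within a library, *Slc25a12* exceeded *Slc25a13* by 5.71 ± 0.125 rlog units (SD, n = 4) in plain water and by 5.77 ± 0.111 (n = 3) in aspartame 1, 3 and 4.

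The other carrier of the shuttle, *Slc25a11*, had rlog values of 7.58, 7.24, 7.31 and 7.35 in water 1 to 4 and of 7.17, 7.16, 7.21 and 7.23 in aspartame 1 to 4. All aspartame libraries lay below all plain water libraries, although water 2 and aspartame 4 were nearly equal. The difference of -0.17 (SE 0.091, adjusted p = 0.262) did not pass the test, nor did the difference of -0.18 with all 8 libraries (adjusted p = 0.903). None of the 4 shuttle enzymes passed the test. The cytosolic malate dehydrogenase *Mdh1* had the largest difference of the 4, -0.29 (SE 0.0946, adjusted p = 0.0750), with groups that did not overlap, and -0.26 with all 8 (adjusted p = 0.903). With the GC and length trend removed, that of *Mdh1* was -0.14 (adjusted p = 0.341). The cytosolic aminotransferase *Got1* differed by -0.08 (adjusted p = 0.632), its mitochondrial counterpart *Got2* by 0.07 (adjusted p = 0.618) and the mitochondrial malate dehydrogenase *Mdh2* by 0.17 (adjusted p = 0.208). In the parallel glycerol phosphate shuttle, 1 of 3 genes passed the test (33.3%, against 8.83% of all genes called and 6.11% higher). It was the cytosolic glycerol-3-phosphate dehydrogenase *Gpd1*, which rose by 0.56 (SE 0.124, adjusted p = 0.0231) and differed by 0.30 with all 8 (adjusted p = 0.903). Its call was also lost with the GC and length trend removed (0.38, adjusted p = 0.128). In the same shuttle *Gpd1l* differed by -0.24 (adjusted p = 0.0541) and by -0.17 with all 8 (adjusted p = 0.903). With the trend removed the difference of *Gpd1l* was -0.25 (adjusted p = 0.0528). *Gpd2* differed by -0.01 (adjusted p = 0.946).

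With the 7 libraries, 3 of the 38 members passed the test (7.89%). Over all 12861 genes tested 8.83% passed. Of the members, 2 rose (5.26%, against 6.11% of all genes) and 1 fell (2.63%, against 2.72%). The shares of members were close to those of all genes. With all 8 libraries, no member and none of the 12861 genes passed limma (0% of both), and at an unadjusted p under 0.05 there were 553 genes (4.3%) and 0 members. The lowest unadjusted p of a member with all 8 was 0.0744.

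The lowest adjusted p among the carriers was that of *Slc25a42* (GRCm38 chr8:70184340-70212305, minus strand), which brings coenzyme A into the matrix in exchange for adenine nucleotides. Its rlog values were 6.31, 6.43, 6.32 and 6.37 in water 1 to 4 and 6.78, 6.01, 6.76 and 6.89 in aspartame 1 to 4. Aspartame 1, 3 and 4 lay above all plain water libraries by at least 0.3, and aspartame 2 lay below all of them. It rose by 0.45, or 1.37-fold (SE 0.0812, adjusted p = 0.0121), from a plain water mean of 6.36 ± 0.0551 (SD, n = 4) to 6.81 ± 0.0691 (n = 3). The call was lost without water 3 (adjusted p = 0.0530), and with all 8 libraries the difference was 0.25 (SE 0.169, adjusted p = 0.903).

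*Slc25a16* (GRCm38 chr10:62920633-62946498, plus strand), whose yeast relative is needed for coenzyme A in mitochondria, was the only member that fell. Its rlog values were 7.35, 7.48, 7.37 and 7.36 in water 1 to 4 and 7.17, 7.52, 6.99 and 7.12 in aspartame 1 to 4. Aspartame 1, 3 and 4 lay below all plain water libraries and aspartame 2 above all of them, the reverse of *Slc25a42*. It fell by 0.30 on the log2 scale, to 0.814-fold (SE 0.0806, adjusted p = 0.0432), from 7.39 ± 0.0623 (n = 4) to 7.09 ± 0.0902 (n = 3). The call was lost when any 1 of the 7 libraries was left out (adjusted p = 0.0514 to 0.121), and with all 8 the difference was -0.19 (SE 0.116, adjusted p = 0.903).

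Of the 7 amino acid carriers tested, 1 passed (14.3%, against 8.83% of all genes called and 6.11% higher). It was the glutamate carrier *Slc25a22* (GRCm38 chr7:141429744-141437892, minus strand), which moves glutamate with a proton. Its rlog values were 8.80, 8.36, 8.42 and 8.45 in water 1 to 4 and 8.90, 7.90, 8.74 and 9.24 in aspartame 1 to 4. The groups overlapped even without aspartame 2, since water 1 lay above aspartame 3, and aspartame 2 was the lowest of all libraries. It rose by 0.46, or 1.37-fold (SE 0.130, adjusted p = 0.0499), from 8.51 ± 0.198 (n = 4) to 8.96 ± 0.257 (n = 3), and with all 8 the difference was 0.19 (SE 0.233, adjusted p = 0.918). Leaving out water 2, aspartame 1, water 3, aspartame 4 or water 4 in turn ended the call (adjusted p = 0.0843 to 0.172).

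The second glutamate carrier, *Slc25a18*, which in brain is known from astrocytes, differed in the other direction without passing the test. Its rlog values were 6.81, 6.66, 6.75 and 6.77 in water 1 to 4 and 6.59, 6.54, 6.54 and 6.65 in aspartame 1 to 4. All 4 aspartame libraries lay below all plain water libraries, here with aspartame 2 beside the others, although water 2 and aspartame 4 were nearly equal. The difference was -0.15 (SE 0.0805, adjusted p = 0.249) and -0.17 with all 8 (SE 0.0845, adjusted p = 0.903). None of the 6 astrocyte markers passed the test, and their summed level was 14.15 to 14.61 on the log2 scale in plain water and 14.38 to 14.69 in aspartame 1, 3 and 4. The remaining amino acid carriers, for ornithine (*Slc25a15*), basic amino acids (*Slc25a29*), glycine (*Slc25a38*) and branched-chain amino acids (*Slc25a44*), differed by -0.08, 0.13, -0.02 and 0.04 and did not pass.

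**Figure D2:**
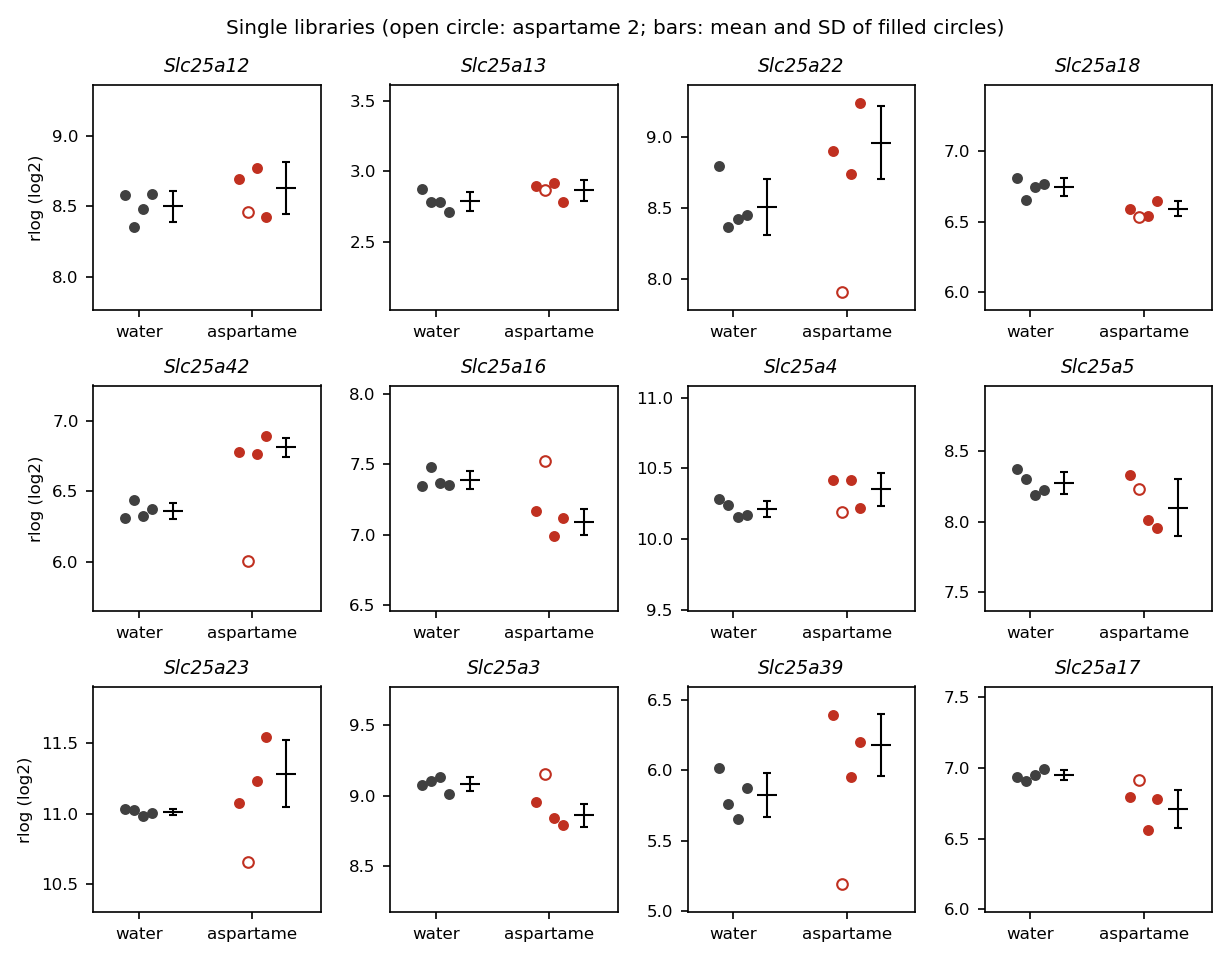
rlog values (log2 scale) of 12 carriers in single libraries, each panel spanning 1.6 units, with gray circles for plain water (n = 4), filled red circles for aspartame 1, 3 and 4 and an open circle for aspartame 2; the bars give the mean and SD of the filled circles. Aspartame 2 lies outside the range of the other libraries for *Slc25a22*, *Slc25a42*, *Slc25a16*, *Slc25a23*, *Slc25a3* and *Slc25a39*, just below it for *Slc25a18*, and within the aspartame group for *Slc25a13*.

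The carriers with the highest levels supply oxidative phosphorylation, and none of them passed the test. The ADP/ATP carrier *Slc25a4* (GRCm38 chr8:46206797-46211284) had rlog values of 10.28, 10.24, 10.15 and 10.17 in water 1 to 4 and of 10.42, 10.19, 10.42 and 10.22 in aspartame 1 to 4. Aspartame 1 and 3 were the highest libraries, and aspartame 2 and 4 lay within the plain water range. The difference was 0.14 (SE 0.079, adjusted p = 0.280) and 0.10 with all 8 (adjusted p = 0.907). The other ADP/ATP carrier, *Slc25a5* (GRCm38 chrX:36795651-36798807), had 8.37, 8.30, 8.19 and 8.23 in water 1 to 4 and 8.33, 8.24, 8.02 and 7.96 in aspartame 1 to 4. Aspartame 3 and 4 were the lowest libraries, and aspartame 1 and 2 lay within the plain water range. Its difference was -0.17 (SE 0.0972, adjusted p = 0.276) and -0.14 with all 8 (adjusted p = 0.903).

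The phosphate carrier *Slc25a3* (GRCm38 chr10:91116574-91124059) had rlog values of 9.07, 9.10, 9.13 and 9.02 in water 1 to 4 and of 8.95, 9.16, 8.84 and 8.79 in aspartame 1 to 4. Aspartame 1, 3 and 4 lay below all plain water libraries and aspartame 2 above them. The difference of -0.22 (SE 0.0734, adjusted p = 0.0832) did not pass the test, although it did after quantile normalization (-0.26, adjusted p = 0.0460). With the GC and length trend removed it was -0.07 (adjusted p = 0.512). With all 8 libraries it was -0.15 (adjusted p = 0.903).

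*Slc25a23* (GRCm38 chr17:57043711-57059863), which exchanges ATP-Mg for phosphate and responds to cytosolic calcium, was the steadiest member in plain water. Its rlog values were 11.03, 11.03, 10.99 and 11.00 in water 1 to 4 and 11.08, 10.66, 11.23 and 11.54 in aspartame 1 to 4. The aspartame libraries were spread over nearly 0.9 units, with aspartame 1, 3 and 4 above and aspartame 2 below the plain water range. The difference was 0.27 (SE 0.101, adjusted p = 0.113), and it passed without aspartame 1 (0.37, adjusted p = 0.0445). It was 0.13 after quantile normalization and 0.14 without aspartame 4, 0.08 with the GC and length trend removed (adjusted p = 0.644), and with all 8 libraries 0.11 (adjusted p = 0.922). Its relatives *Slc25a24* and *Slc25a25* differed by 0.05 and 0.15 and did not pass.

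Among the remaining carriers of nucleotides and cofactors, the peroxisomal cofactor carrier *Slc25a17*, found outside mitochondria, had rlog values of 6.94, 6.91, 6.95 and 7.0 in water 1 to 4 and of 6.80, 6.91, 6.56 and 6.78 in aspartame 1 to 4. Aspartame 1, 3 and 4 lay below all plain water libraries, and aspartame 2 was level with water 2. The difference was -0.24 (SE 0.086, adjusted p = 0.105), -0.19 with all 8 (adjusted p = 0.903) and -0.05 with the GC and length trend removed (adjusted p = 0.776). The folate and FAD carrier *Slc25a32* had 5.18, 5.39, 5.38 and 5.48 in water 1 to 4 and 5.06, 5.63, 5.24 and 5.17 in aspartame 1 to 4. The groups overlapped at water 1, and aspartame 2 was the highest library. The difference was -0.20 (SE 0.0953, adjusted p = 0.204) and -0.08 with all 8 (adjusted p = 0.937).

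The S-adenosylmethionine carrier *Slc25a26*, which supplies the methyl donor of mitochondrial RNA and protein, had rlog values of 4.94, 4.88, 4.76 and 4.76 in water 1 to 4 and of 5.03, 4.94, 4.95 and 4.98 in aspartame 1 to 4. All 4 aspartame libraries lay above all plain water libraries, although aspartame 2 and water 1 were nearly equal. The difference of 0.15 (SE 0.0831, adjusted p = 0.276) did not pass the test, nor did the 0.14 with all 8 (adjusted p = 0.903) or the 0.25 with the GC and length trend removed (adjusted p = 0.101). In all, 1 of the 15 nucleotide and cofactor carriers rose and 1 fell (13.3%, against 8.83% of all genes, 6.11% higher and 2.72% lower). Of the 15 differences 9 were positive, and their median was 0.05, against -0.0043 over all genes tested. The NAD carrier *Slc25a51* and the pyrimidine nucleotide carriers *Slc25a33* and *Slc25a36* differed by 0.14, -0.12 and 0.03.

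None of the 4 carriers of iron and glutathione passed the test. *Slc25a39*, which is needed for glutathione in mitochondria, had rlog values of 6.02, 5.76, 5.65 and 5.88 in water 1 to 4 and of 6.39, 5.20, 5.95 and 6.20 in aspartame 1 to 4. Aspartame 1 and 4 were the highest libraries, aspartame 3 lay below water 1, and aspartame 2 was the lowest. The difference was 0.35 (SE 0.12, adjusted p = 0.0853) and passed without aspartame 3 (0.47, adjusted p = 0.0200). It was 0.16 with the GC and length trend removed (adjusted p = 0.285) and 0.11 with all 8 libraries (adjusted p = 0.944). Its relative *Slc25a40* differed by -0.11, mitoferrin 2 (*Slc25a28*) by 0.26 (0.05 with the trend removed) and mitoferrin 1 (*Slc25a37*) by less than 0.01.

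None of the 4 carriers of carboxylates and carnitine passed either. The carnitine-acylcarnitine carrier *Slc25a20*, which admits fatty acids for oxidation, had rlog values of 4.99, 5.02, 5.13 and 5.07 in water 1 to 4 and of 5.17, 4.98, 5.34 and 5.33 in aspartame 1 to 4. Aspartame 1, 3 and 4 lay above all plain water libraries and aspartame 2 below them. The difference was 0.23 (SE 0.0848, adjusted p = 0.112) and 0.15 with all 8 (adjusted p = 0.903). It was 0.34 with the GC and length trend removed (adjusted p = 0.0612). The citrate carrier *Slc25a1* differed by -0.08 and the dicarboxylate carrier *Slc25a10* by 0.05. The 3 relatives of the uncoupling proteins, *Slc25a14*, *Slc25a27* and *Slc25a30*, differed by -0.12 to -0.03, and *Slc25a46*, a protein of the outer membrane that acts on mitochondrial shape, by -0.18 (adjusted p = 0.161). The 4 members without a settled substrate differed by 0.01 to 0.07.

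**Figure D3:**
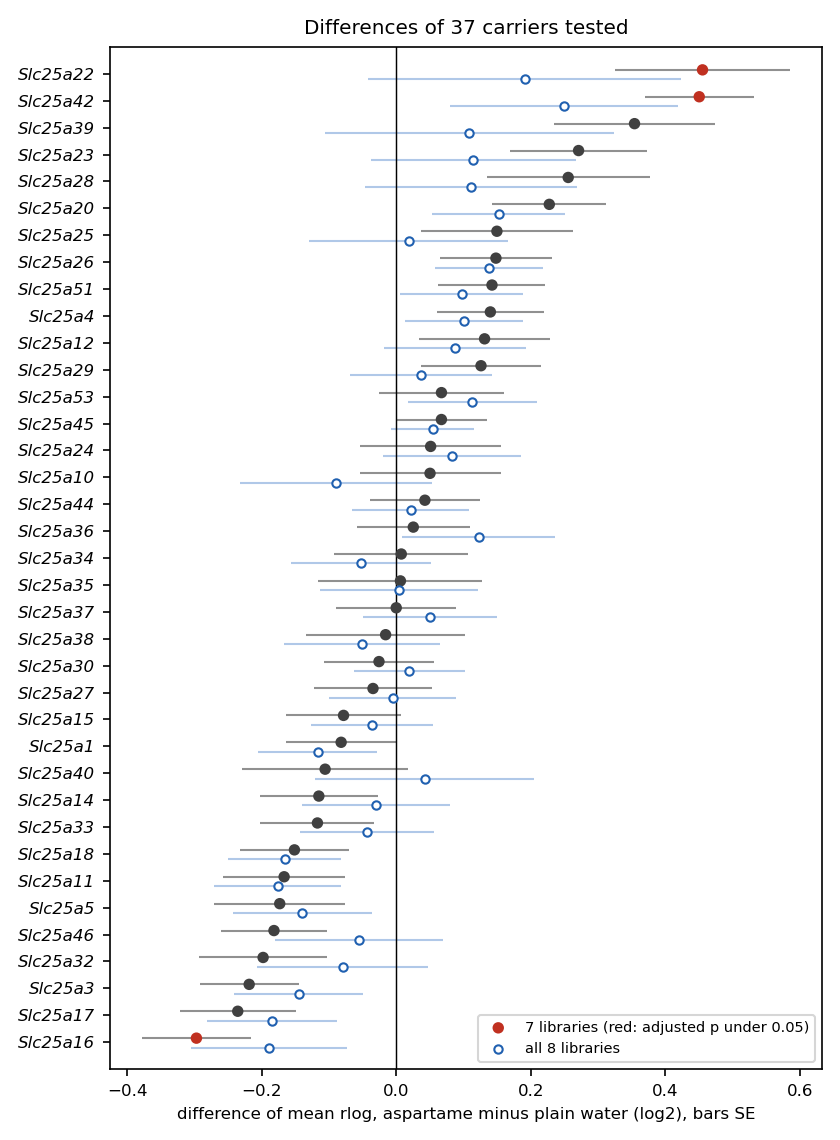
Aspartame minus plain water difference of mean rlog (log2 scale) of 37 of the 38 members tested, with bars of 1 SE; filled circles are the 7 libraries without aspartame 2 (red where the limma adjusted p was under 0.05) and open circles all 8. The differences run from -0.30 in *Slc25a16* to 0.46 in *Slc25a22*, and no open circle passed the test.

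Over the 38 members tested, 21 differences were positive and 17 negative with the 7 libraries. Their median was 0.02, against -0.0043 over all genes tested, and the median size of a difference was 0.135, against 0.124. The groups did not overlap for 10 members (26.3%), 4 higher (10.5%) and 6 lower (15.8%), against 23% of all genes (10.9% higher and 12% lower). At an unadjusted p under 0.05 there were 10 members (26.3%), against 27.1% of all genes. With all 8 libraries the median difference was 0.02, against 0.0033 over all genes, and 33 of the 38 members kept the sign of their difference. The groups then did not overlap for 3 members, *Slc25a11*, *Slc25a18* and *Slc25a26* (7.89%, against 3.37% of all genes).

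Carriers linked to the same substrate were set against each other within each library. This removes an error of scaling that both share but not one that depends on the transcript. For *Slc25a16* the link to coenzyme A is not an established substrate. The 7 pairs were chosen after the values had been seen, so their differences are a description with no test. The coenzyme A pair had the widest difference, and its transcripts differ widely in GC content (56.2% and 43.4%). *Slc25a42* minus *Slc25a16* was -1.03 ± 0.0285 (SD, n = 4) in plain water. It was -0.39, -0.23 and -0.23 in aspartame 1, 3 and 4, but -1.52 in aspartame 2. The glutamate pair, *Slc25a22* minus *Slc25a18*, was 1.76 ± 0.152 in plain water. Aspartame 1, 3 and 4 had 2.31, 2.20 and 2.60, but aspartame 2 had 1.37. The ADP/ATP pair, *Slc25a4* minus *Slc25a5*, was 1.94 ± 0.0221 in plain water, where aspartame 1, 3 and 4 had 2.09, 2.40 and 2.26 and aspartame 2 had 1.96. In these 3 pairs aspartame 1, 3 and 4 lay above all plain water libraries. Aspartame 2 lay below them for the first 2 and within their range for the ADP/ATP pair, so that no pair had separate groups with all 8 libraries. The other 4 pairs overlapped with the 7 libraries as well. Removing the GC and length trend reduced the mean difference from plain water from 0.75 to 0.45 for the coenzyme A pair, from 0.61 to 0.39 for the glutamate pair and from 0.31 to 0.21 for the ADP/ATP pair. It reduced that of the glutathione pair, *Slc25a39* minus *Slc25a40*, from 0.46 to 0.11.

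**Figure D4:**
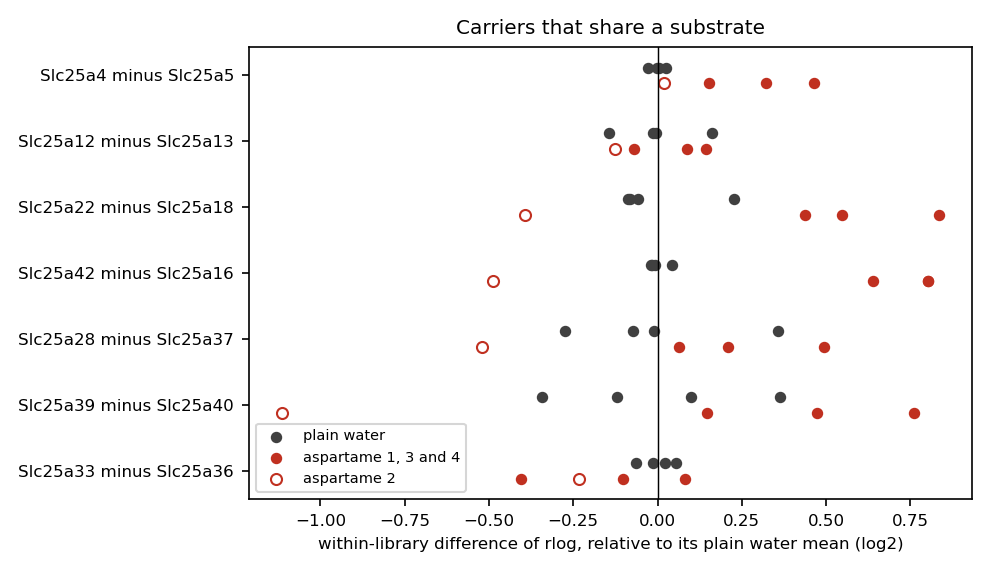
Within-library difference of rlog between 2 carriers linked to the same substrate, relative to its plain water mean (log2 scale), for 7 pairs. Gray circles are plain water, filled red circles aspartame 1, 3 and 4 and the open circle aspartame 2. The coenzyme A pair of *Slc25a42* and *Slc25a16* shows the widest gap, with mean differences from plain water of 0.75 for aspartame 1, 3 and 4 and of 0.44 with all 4 aspartame libraries.

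The differences of the carriers moved with the base composition of their transcripts. Across the 38 members tested, the 7-library difference and the GC content of the transcript had a Spearman correlation of 0.51, and across 12778 genes one of 0.52. The points share libraries and are not independent. The 19 members with the GC-richer transcripts (51.8 to 60.9%) had a median difference of 0.07, and 14 of them were positive. The 19 with the GC-poorer transcripts (39.7 to 50.1%) had a median of -0.03, and 7 were positive. *Slc25a42* and *Slc25a22*, the members that rose, have transcripts of 56.2% and 57.8% GC, and *Slc25a16*, which fell, one of 43.4%. In the pairs, the carrier with the GC-richer transcript had the more positive difference in 5 of 7.

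Aspartame 2 showed the reverse relation. Its deviation from the plain water mean correlated with GC content at -0.85 across the members, and it lay below plain water for 17 of the 19 GC-richer members and above for 14 of the 19 GC-poorer ones. Aspartame 2 lay on the other side of the plain water mean from the mean of aspartame 1, 3 and 4 for 27 of the 38 members (71.1%), all 3 called ones included, and for 66.4% of all genes. It held the highest value of the 8 libraries for 12 members and the lowest for 14. Over all genes tested, it was the highest or lowest library for 56.3%. The relation with GC content also differed within the groups. Over all genes, the median deviation from the gene mean in the top decile of GC content exceeded that in the bottom decile by 0.20 in water 1. This gap was -0.22 to -0.12 in water 2 to 4. In aspartame 1, 3 and 4 it was 0.38, 0.03 and 0.46, and in aspartame 2 it was -0.65. When a smooth trend with GC content and transcript length was removed within each library, no member passed the 7-library test, against 1.95% of 12778 genes. *Slc25a42* then differed by 0.28 (adjusted p = 0.0877), *Slc25a22* by 0.24 (adjusted p = 0.160) and *Slc25a16* by -0.17 (adjusted p = 0.235). The lowest adjusted p of a member was then that of *Slc25a20*, with a larger difference than before (0.34 against 0.23, adjusted p = 0.0612). That of *Slc25a4* was also larger (0.20 against 0.14, adjusted p = 0.114). *Slc25a12* differed by 0.10 (adjusted p = 0.602), and *Slc25a5* by -0.01 (adjusted p = 0.961).

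**Figure D5:**
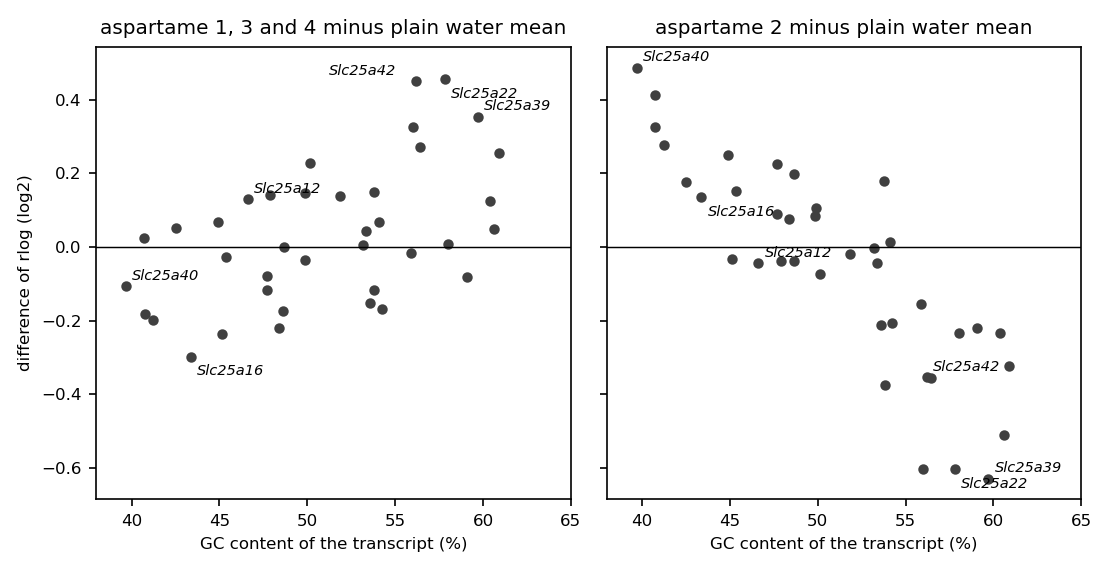
GC content of the transcript (%) against the difference of rlog from the plain water mean (log2 scale) for the 38 members tested, for the mean of aspartame 1, 3 and 4 (left) and for aspartame 2 (right). The points rise with GC content on the left (Spearman correlation of 0.51) and fall on the right (-0.85).

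Other parts of the same transport system were counted with the 7 libraries, and none of their genes passed with all 8. Of 19 genes tested from a list for ATP synthase, which uses the ADP and phosphate that the carriers deliver, 5 fell and none rose (26.3%, against 8.83% of all genes called and 2.72% lower). The list holds its inhibitor *Atpif1* and *1810058I24Rik* beside the subunits, neither of them called. The median difference was -0.17, and -0.07 with the GC and length trend removed. *Usmg5* fell by 0.43 (adjusted p = 0.0107) and *Atp5c1* by 0.43 (adjusted p = 0.0121), and 1 of the 19, *Atp5c1*, passed after the GC and length trend was removed (adjusted p = 0.0388). Of 16 genes of the import route of carrier proteins, 2 fell and none rose (12.5%, against the same shares of all genes), with a median of -0.12 that was -0.02 with the trend removed. They were the receptor subunit *Tomm22*, which fell by 0.34 (adjusted p = 0.0293), and *Agk*, a lipid kinase that is also part of the carrier translocase, which fell by 0.32 (adjusted p = 0.0298). Of the 16 differences 12 were negative and 4 positive. The largest was positive, that of *Tomm40* at 0.39 (adjusted p = 0.0613), and 0.16 with the trend removed (adjusted p = 0.233). Of the 3 outer membrane channels 1 passed (33.3%, against the same shares of all genes), *Vdac3*, which fell by 0.32 (adjusted p = 0.0397). After the trend was removed, the calls were lost for *Usmg5* (adjusted p = 0.0612), *Tomm22* (adjusted p = 0.224), *Agk* (adjusted p = 0.0926) and *Vdac3* (adjusted p = 0.289).

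None of the 16 citric acid cycle genes (median -0.10), the 5 calcium uniporter genes tested (median 0.03), the 2 pyruvate carrier subunits (median -0.27) or the 4 genes with a carrier fold but another symbol (median 0.19) passed. With the GC and length trend removed these medians were 0.0036, 0.07, -0.14 and 0.07. Both pyruvate carrier subunits had separate groups, as 23% of all genes did (12% lower). *Mpc2* was at -0.34 (adjusted p = 0.0519) and *Mpc1* at -0.19 (adjusted p = 0.137). With the trend removed *Mpc2* was at -0.28 (adjusted p = 0.153) and *Mpc1* at -0.0084 (adjusted p = 0.961). With all 8 libraries the groups overlapped for both, and the differences were -0.22 and -0.13. No gene name in the table starts with mt-, the only form looked for among mitochondrially encoded genes. These differences were therefore not set against mitochondrially encoded transcripts.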

How the data were processed

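The authors aligned paired reads of stranded mRNA libraries with STAR to mm10 and obtained gene counts with Salmon. The log2 values they deposited are read as rlog values of DESeq2, as the table is called, since the methods name DESeq2 but not the options of this transformation. No counts were at hand, so the depth and the counting error are unknown.

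Samples were grouped by their labels. The 12861 varying genes whose mean rlog reached 3 entered the limma test (version 3.58.1, R 4.3.3, moderated with a trend of variance on level). Benjamini-Hochberg adjustment was over all of these genes, with calls at an adjusted p under 0.05. Intervals are 95%. Coordinates, GC content and length are from GENCODE M21 on GRCm38 (12778 genes, 99.35%), and GC and length trends were removed within each library with natural splines of 5 degrees of freedom each. Tables and plots were made in Python.

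The members, gene lists and tests were chosen with earlier results of these data known. Values are given by library for *Slc25a12* and *Slc25a13*, the called members, the 4 members with the highest plain water level per length and the 3 largest uncalled differences in each direction (1 of which is not reported here by name, though counts cover it), and in the other lists for up to 2 called genes with the smallest p. *Slc25a11*, *Slc25a18*, *Slc25a20* and *Slc25a26* and other genes named with values were chosen after their values were seen. As alternatives, all 8 libraries were used, each library was left out, and the fit was repeated with other filters (none, or a mean rlog of 5), no variance trend, quantile normalization, age, the replicate number as a block and GC and length removal. The test was tried on simulated data. The fit of the 6 libraries of the block without it, the 8-library fit without a filter and the pairs were added after the values were seen.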

Additional observations from a re-analysis of the deposited data

Results flagged for a closer look

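Among the 4 libraries of a group, a single library stood apart in 3 of the 34 groups looked at (17 genes), by a gap to its nearest neighbor that exceeded Dixon's 95% critical value as a share of the range of the group. Chance gives about 1 in 20 such groups for genes picked without regard to their values. Some of these genes were picked by their values, and all share the same 8 libraries. That rate is therefore no yardstick for the 3 groups. In plain water, water 2 was the highest library for *Slc25a16*, with a gap of 0.858 of the range. In aspartame, aspartame 2 was the lowest library for *Slc25a42* (0.858) and for the shuttle enzyme *Got2* (0.853). *Slc25a16* was not called without water 2 (-0.27, adjusted p = 0.118, limma with Benjamini-Hochberg adjustment), and *Slc25a42* was not called with aspartame 2 (0.25, adjusted p = 0.903).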

How the results depend on the processing

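Of 204 values of 12 single members under the alternatives, 167 kept their direction and side of the threshold, 30 lost a call, 6 gained one and 1 reversed. The reversal was *Slc25a5* at 0.0073 in the replicate block with the GC and length trend removed. The losses all fell on the 3 called members. Over 17 alternatives each, *Slc25a16* and *Slc25a22* kept their calls in 4 and *Slc25a42* in 13. The 2 members that rose became 1 with no filter, with no variance trend, with quantile normalization or with age as a covariate, and 0 with all 8 libraries or with the trend removed, with or without the block. The 1 that fell became 2 with quantile normalization and 0 with all 8 libraries, age, the block or the trend removed, with or without the block. Leaving out 1 library gave 0 (water 3) to 4 (aspartame 3) members that rose and 0 that fell, and a median member difference of 0.0044 (aspartame 4) to 0.067 (aspartame 3). From all 8 libraries it gave 0 to 3 called members, 3 without aspartame 2. The causes were not tested. Of all genes, 1136 were called (786 higher, 350 lower), 1238 after quantile normalization (718 and 520), 223 with age, 249 with the trend removed, 135 (without water 3) to 2080 (without aspartame 3) with 1 library left out, and 0 with all 8.

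Samples shared replicate numbers 1 to 4 in the labels, but deviations of same-numbered libraries correlated at 0.28, 0.31 and -0.01 (numbers 1, 3 and 4 of the 7 libraries), so the numbers were not taken as pairs. The replicate block on 6 libraries gave 3 members that rose and 0 that fell (1385 genes), and the same 6 without it, added after the data were seen, 1 and 0 (371 genes). With the trend also removed, the block gave 0 of each (152 genes).

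Limits are 3 or 4 animals per group, unknown depth and 1 library per animal. Every member call with the 7 libraries depends on leaving out aspartame 2, which was picked by its values and not by its label.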
